A study of Homo sapiens with 24 samples.

Results

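Transcription of the mitochondrial genome and the first handling of its RNA depend on proteins encoded in the nucleus, and 10 genes of that machinery were examined here. They were chosen by name in the deposited count table, which held 58051 genes, and all 10 were found and passed the filter on low counts that kept 18852 genes. The measurements came from 24 libraries of neurons of dopaminergic type made from LUHMES cells, a conditionally immortalised line of human mesencephalic origin, differentiated with tetracycline, cAMP and GDNF. Cultures were exposed for 6 h, with 3 libraries in each of 8 groups, and the labels name no animal or donor beyond this 1 line. The toxicant cultures received MS275 at 5 µM (entinostat, which blocks class I histone deacetylases), 5 µM paraquat (a redox-cycling bipyridinium herbicide), 5 µM MPP (methylphenylpyridinium, which dopaminergic cells take up and which inhibits complex I) or 2 µM ziram (a zinc dithiocarbamate fungicide). The others received 1 µM rotenone (an inhibitor of complex I), 1 µM 6-HD (hydroxydopamine) or 0.5 µM methylmercury chloride. The control cultures received DMSO alone, and every group, toxicant or control, contained 1% DMSO.

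The circular mitochondrial DNA is copied into long RNAs from promoters on each strand. POLRMT is the RNA polymerase, TFAM bends promoter DNA and also packages the genome, TFB2M opens the promoter, and TEFM keeps the polymerase moving. TFB1M, a paralogue of TFB2M, methylates the RNA of the small mitochondrial ribosomal subunit. ELAC2 (the mitochondrial and nuclear RNase Z) cuts the long RNAs at the 3' ends of tRNAs. LRPPRC and SLIRP form a complex that stabilises the mRNAs, and SUPV3L1, a helicase, and PNPT1, a polynucleotide phosphorylase, form the complex that degrades mitochondrial RNA. Such genes are of interest in dopaminergic neurons because complex I, the target of MPP and rotenone, is partly encoded in the mitochondrial genome. The transcripts measured here are the nuclear-encoded mRNAs of these factors, and their proteins were not measured.

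The promoters of the polymerase, TFAM and the paralogues TFB1M and TFB2M are printed because these genes parted under MS275: TFAM and TFB2M fell, whereas POLRMT and TFB1M were not called. Each line gives the 250 bases before the RefSeq start (GRCh38.p14), 5′ to 3′ on the gene's strand. Capitals mark matches, on either strand, to GCGCA followed by any base and GCGC, the core bound by the regulator NRF1, and to CCGGAAG, the core bound by ETS factors such as GABPA.
POLRMT, chr19:633538-633787, minus strand: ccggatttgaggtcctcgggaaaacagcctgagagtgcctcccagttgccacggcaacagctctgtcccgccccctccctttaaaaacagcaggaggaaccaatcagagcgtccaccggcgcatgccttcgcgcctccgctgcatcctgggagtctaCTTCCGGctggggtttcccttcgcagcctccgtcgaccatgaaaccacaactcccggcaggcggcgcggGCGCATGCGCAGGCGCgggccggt
TFAM, chr10:58385160-58385409, plus strand: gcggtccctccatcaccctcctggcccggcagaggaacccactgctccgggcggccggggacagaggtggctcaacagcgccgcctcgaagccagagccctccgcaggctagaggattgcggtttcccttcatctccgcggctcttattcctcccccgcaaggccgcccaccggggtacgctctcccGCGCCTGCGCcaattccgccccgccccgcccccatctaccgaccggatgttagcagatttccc
TFB1M, chr6:155314485-155314734, minus strand: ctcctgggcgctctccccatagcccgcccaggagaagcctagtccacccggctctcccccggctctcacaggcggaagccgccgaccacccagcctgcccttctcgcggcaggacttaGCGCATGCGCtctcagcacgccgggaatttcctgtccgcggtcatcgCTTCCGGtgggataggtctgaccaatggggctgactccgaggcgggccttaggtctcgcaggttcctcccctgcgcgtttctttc
TFB2M, chr1:246566262-246566511, minus strand: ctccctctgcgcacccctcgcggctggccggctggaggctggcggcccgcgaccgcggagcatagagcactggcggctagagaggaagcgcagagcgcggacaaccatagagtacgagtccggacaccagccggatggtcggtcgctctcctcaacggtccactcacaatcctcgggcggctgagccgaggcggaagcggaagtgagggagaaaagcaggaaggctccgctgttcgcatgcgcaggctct
Searched over 250 bases before to 50 after the start, the NRF1 core occurred in 3 of the 10 members, POLRMT, TFAM and TFB1M, and in 5.78% of 35114 promoters of the same length. In POLRMT its matches overlapped each other. The ETS core occurred in 5 members, POLRMT, TFB1M, TEFM, SLIRP and ELAC2, and in 10.3% of all promoters. TFB2M, LRPPRC, PNPT1 and SUPV3L1 held neither string in this window, which says nothing about whether either factor binds there. Of the members with a match, TFAM and ELAC2 fell under MS275, and POLRMT, TFB1M, TEFM and SLIRP were not called. TFB2M, LRPPRC, PNPT1 and SUPV3L1, which held neither string, all fell. A link between the strings and the response was not tested.

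Library totals ranged from 9.69 to 46.9 megareads counted to genes. Counts per library ran from 3139 to 16087 for LRPPRC, the member with most reads, but from 71 to 400 for TEFM and from 45 to 439 for TFB1M, whose values are the least precise. Levels are given as CPM, counts per megaread of the library total after scaling by trimmed mean of M values (TMM). Changes are log2 fold changes of an edgeR fit over all 24 libraries, with a standard error (SE) or 95% interval derived from its F statistic. A gene was called when its Benjamini-Hochberg adjusted p over the 18852 genes was under 0.05 (edgeR adjusted p). No donors or separate cultures are named for the replicates beyond the submitters' statement that they are biological, so the p-values measure the spread between these samples. Pan-neuronal markers were all at 1 CPM or more in DMSO, with a summed level of 5098 to 6236 CPM over 8 genes. Of 10 dopaminergic markers, 6 reached 1 CPM in DMSO, among them the dopamine transporter SLC6A3 at 636 ± 59.9 CPM and TH, the enzyme that limits dopamine synthesis, at 50.8 ± 4.70 CPM (SD, n = 3), and FOXA2 was at 0 reads in every group.

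In DMSO cultures the members spanned a wide range of abundance. Per kilobase of the principal GENCODE 29 transcript, SLIRP was highest at 208 ± 9.23 CPM per kilobase (SD, n = 3), followed by LRPPRC at 50.9 ± 2.20, ELAC2 at 30.6 ± 0.803 and POLRMT at 21.9 ± 0.485 CPM per kilobase. SUPV3L1 stood at 20.01 ± 0.250, TFAM at 15.9 ± 0.382, PNPT1 at 9.89 ± 0.676 and TFB2M at 8.89 ± 0.455 CPM per kilobase. The lowest were TFB1M at 5.47 ± 0.690 and TEFM at 3.68 ± 0.814 CPM per kilobase. No neighbours in this order overlapped between the 3 DMSO libraries, but the order depends on the length used. With the union of all annotated exons as the length, LRPPRC was at 33.0 and SLIRP at 32.2 CPM per kilobase, TFAM ranked 4th instead of 6th and TFB2M stood above PNPT1. The polymerase and the packaging protein drew far more reads than the elongation factor, with POLRMT at 84.1 ± 1.86 CPM, TFAM at 86.3 ± 2.07 CPM and TEFM at 6.96 ± 1.54 CPM (not per length).

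**Figure D1:**
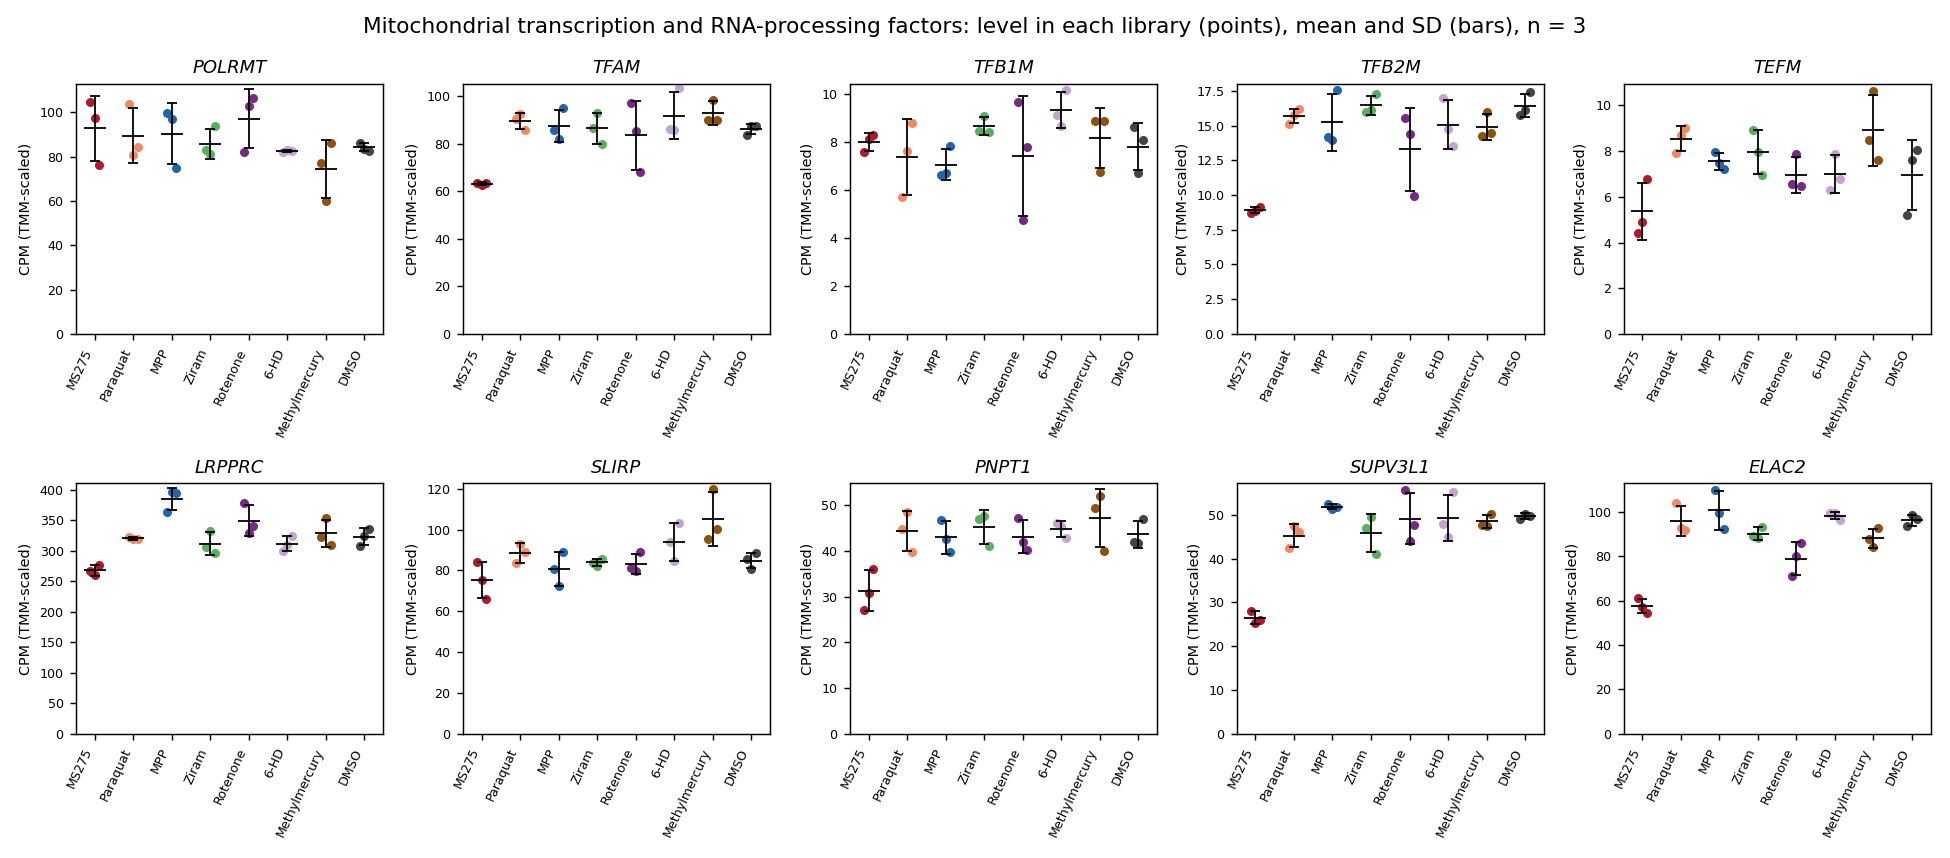
Level of each of the 10 genes in CPM (vertical axis, from 0) in the 8 groups (horizontal axis). Points are libraries and bars give the mean and SD of 3; MS275 has the lowest mean for 8 of the 10 genes, POLRMT and TFB1M being the others, and LRPPRC is highest in MPP.

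MS275 lowered 6 of the 10 genes and raised none, where 23% of all tested genes were lower, 20.1% higher and 43.2% called in either direction. The genes that fell were TFAM and TFB2M of transcription initiation, ELAC2 of tRNA processing, LRPPRC of mRNA stability, and both SUPV3L1 and PNPT1 of RNA decay. The median log2 fold change of the members was -0.43, against 0.04 over all 18852 genes. The 4 that were not called were POLRMT, TFB1M, TEFM and SLIRP. The MS275 libraries of the 6 called genes, and those of no other member, all lay below DMSO, where 27.5% of all genes did. Each of the 6 calls was kept in all 12 alternative settings tried, including the omission of any 1 MS275 or DMSO library.

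Among initiation factors, TFB2M fell most. TFB2M (chromosome 1, 246540560 to 246566324, GRCh38, minus strand) had 8.72, 8.87 and 9.11 CPM in MS275 libraries, against 15.8, 16.1 and 17.4 CPM in DMSO libraries. The MS275 libraries lay far below all DMSO libraries, with a log2 fold change of -0.89 ± 0.14 (SE; 0.540-fold; edgeR adjusted p = 6.49e-06). TFAM (chromosome 10, 58385022 to 58399221, plus strand) had 63.5, 62.6 and 63.7 CPM in MS275 libraries, against 84.0, 87.4 and 87.7 CPM in DMSO libraries. The groups did not overlap and the MS275 libraries were within about 1 CPM of each other (log2 fold change -0.45 ± 0.10 SE; 0.732-fold; edgeR adjusted p = 0.000518).

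The polymerase itself was not called. POLRMT (chromosome 19, 617224 to 633604, minus strand) had 105, 97.5 and 76.3 CPM in MS275 libraries, against 86.2, 83.5 and 82.7 CPM in DMSO libraries. Replicates 1 and 2 of MS275 were above all DMSO libraries and replicate 3 below them, so the groups overlapped (log2 fold change 0.14, 95% interval -0.12 to 0.41; edgeR adjusted p = 0.387). TFB1M, the methyltransferase paralogue, had 7.56, 8.12 and 8.29 CPM in MS275 libraries, against 8.61, 6.70 and 8.07 CPM in DMSO libraries. Its groups overlapped and its interval was wide (log2 fold change 0.04, 95% interval -0.35 to 0.43). TEFM, the elongation factor, had 4.40, 4.92 and 6.78 CPM in MS275 libraries, against 5.19, 7.63 and 8.04 CPM in DMSO libraries. Its libraries overlapped, and it was not called although its interval lay below 0 (log2 fold change -0.41, 95% interval -0.80 to -0.03; edgeR adjusted p = 0.0749). It was called lower without DMSO replicate 1 (edgeR adjusted p = 0.0194) or without MS275 replicate 3 (0.0166).

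ELAC2, whose product frees tRNA 3' ends, fell to 61.1, 56.9 and 54.5 CPM in MS275 libraries, against 93.5, 98.5 and 96.5 CPM in DMSO libraries. All MS275 libraries were well below all DMSO libraries (chromosome 17, 12992391 to 13018187, minus strand; log2 fold change -0.74 ± 0.09 SE; 0.598-fold; edgeR adjusted p = 4.14e-08). SUPV3L1, the helicase of the decay complex, fell to 28.1, 25.2 and 26.0 CPM in MS275 libraries, against 49.0, 50.2 and 49.8 CPM in DMSO libraries. This was the lowest fold change among the members, 0.532-fold with a 95% interval of 0.461 to 0.614 (chromosome 10, 69180232 to 69209099, plus strand; edgeR adjusted p = 1.66e-08). PNPT1, the nuclease of the same complex, fell to 27.2, 30.7 and 36.0 CPM in MS275 libraries, against 42.0, 41.8 and 47.1 CPM in DMSO libraries. The groups did not overlap, but replicate 3 of MS275 was nearer to the DMSO level (chromosome 2, 55634265 to 55693910, minus strand; log2 fold change -0.49 ± 0.12 SE; 0.714-fold; edgeR adjusted p = 0.00100).

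Of the mRNA-stabilising complex, LRPPRC was called and SLIRP was not. LRPPRC (chromosome 2, 43886508 to 43996005, minus strand) fell to 267, 259 and 277 CPM in MS275 libraries, against 308, 325 and 335 CPM in DMSO libraries. It did so without overlap but by a small amount (log2 fold change -0.27 ± 0.07 SE; 0.830-fold; edgeR adjusted p = 0.00306). SLIRP had 84.1, 75.3 and 66.2 CPM in MS275 libraries, against 85.4, 80.8 and 88.3 CPM in DMSO libraries. Its groups overlapped through replicate 1 of MS275 and it was not called (log2 fold change -0.17, 95% interval -0.38 to 0.03; edgeR adjusted p = 0.171). In bulk RNA a loss of cells with a high level and a lower level per cell cannot be told apart.

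**Figure D2:**
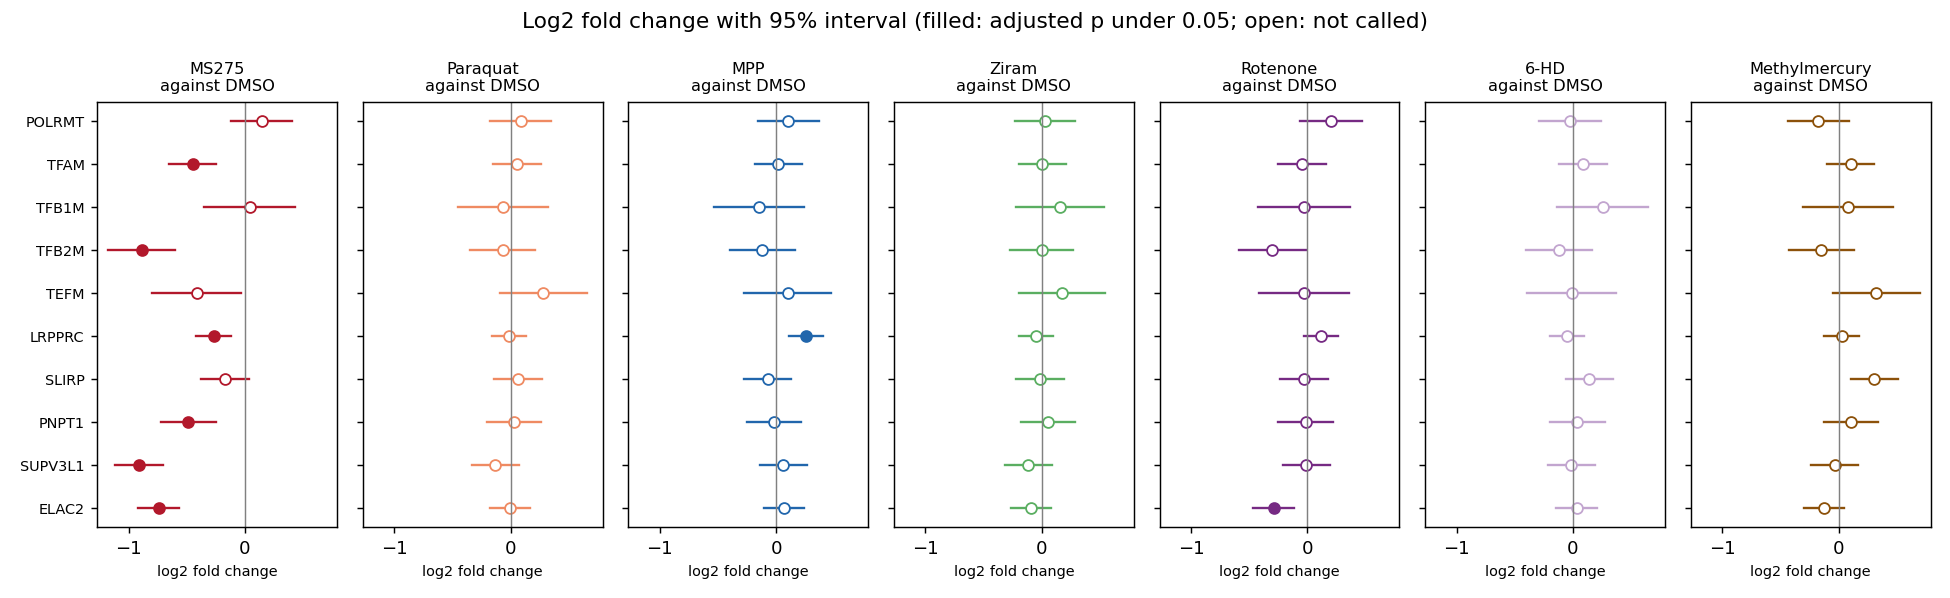
Log2 fold change (horizontal axis) of each of the 10 genes with its 95% interval, 1 panel per toxicant against DMSO, with filled points for an adjusted p under 0.05. MS275 has 6 filled points, all below 0 and as low as -0.91 for SUPV3L1, MPP has LRPPRC at 0.25 and rotenone has ELAC2 at -0.29; the other 4 panels have none.

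Ratios of counts within a library do not depend on the scaling of libraries, and they were compared for 5 pairs of members and 7 toxicants, 35 tests. The ratio of TFB2M to its paralogue TFB1M was 1.15, 1.09 and 1.10 in MS275 libraries, against 1.83, 2.40 and 2.15 in DMSO libraries. The groups were well apart, as they were for TFB2M to POLRMT, with a mean ratio of 0.0980 ± 0.0190 in MS275 and 0.195 ± 0.0137 in DMSO (SD, n = 3 each). The ratio of TFAM to POLRMT was 0.607, 0.641 and 0.836 in MS275 libraries, against 0.974, 1.05 and 1.06 in DMSO libraries, also without overlap. SUPV3L1 stood lower relative to PNPT1, its partner in RNA decay, at 1.03, 0.821 and 0.722 in MS275 libraries, against 1.17, 1.20 and 1.06 in DMSO libraries. For these ratios the exact two-sided permutation test gave p = 0.1, the smallest that 3 against 3 libraries allow, and 0.5 after Benjamini-Hochberg adjustment over the 35. Ziram also lay wholly below DMSO in SUPV3L1 to PNPT1, at 1.01 ± 0.0222 in ziram and 1.14 ± 0.0745 in DMSO (SD, n = 3 each; exact permutation p = 0.1). Single libraries of other groups reached the MS275 range of this ratio, with 0.943 and 0.977 in paraquat replicates 1 and 2. Methylmercury replicates 1 and 2 had 0.965 and 0.915. Rotenone replicate 3 lay within the MS275 ranges of TFAM to POLRMT, at 0.642, and TFB2M to POLRMT, at 0.0933. LRPPRC to SLIRP overlapped between MS275 and DMSO, with means of 3.60 ± 0.526 and 3.81 ± 0.206 (exact permutation p = 0.5).

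**Figure D3:**
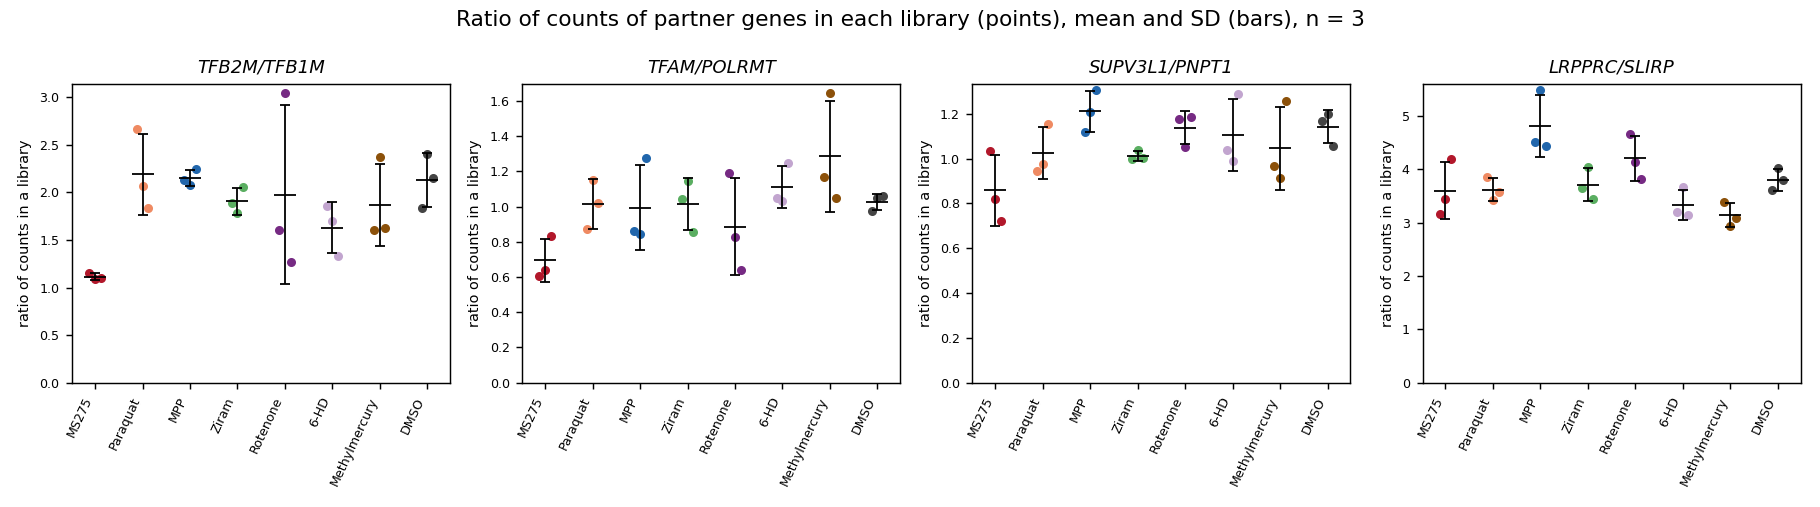
Ratio of counts of 4 pairs of genes (vertical axis, from 0) in each library of the 8 groups, with the mean and SD of 3. TFB2M to TFB1M is near 1.1 in all MS275 libraries, against 1.83 to 2.40 in DMSO libraries, and LRPPRC to SLIRP is highest in MPP.

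Other genes of the same processes were taken from 5 lists, 64 genes in all, of which 33 were lower and 7 higher under MS275 (30 and 8 with RLE size factors). Of 22 further factors of mitochondrial RNA processing, stability and decay, 15 fell and 2 rose, with a median log2 fold change of -0.44. The largest falls were those of PRORP, the nuclease of mitochondrial RNase P that cuts tRNA 5' ends, to 3.21 ± 0.588 CPM in MS275 against 6.74 ± 0.299 CPM in DMSO (SD, n = 3 each; 0.482-fold; edgeR adjusted p = 0.000382), and of FASTKD2, an RNA-binding protein of mitochondrial RNA granules, to 0.578-fold. RPUSD4, a pseudouridine synthase of the granules, fell to 0.603-fold and FASTKD1 to 0.614-fold. The mRNAs of TRMT10C and HSD17B10, whose proteins work with PRORP, fell to 0.820-fold and 0.782-fold, and that of MTPAP, the mitochondrial poly(A) polymerase, to 0.710-fold. Those 3 were chosen after their values were seen.

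Enzymes that modify mitochondrial tRNA and rRNA also fell, 7 of 15 with none higher (median log2 fold change -0.33). MTO1, which modifies the wobble base of tRNAs, fell to 14.2 ± 2.26 CPM in MS275, against 27.8 ± 0.987 CPM in DMSO (SD, n = 3 each; 0.514-fold; edgeR adjusted p = 1.57e-07). TRMT61B, a tRNA and rRNA methyltransferase, fell to 0.568-fold, TRMU, which thiolates tRNAs, to 0.608-fold and the pseudouridine synthase PUS1 to 0.727-fold. Of 12 genes of mitochondrial DNA replication and maintenance 5 fell and 1 rose, with the nuclease EXOG at 0.536-fold, the topoisomerase TOP3A at 0.650-fold, the ligase LIG3 at 0.660-fold and PRIMPOL, a primase, at 1.42-fold. Only MTERF2 was called among 5 further transcription factors, at 0.624-fold (edgeR adjusted p = 0.00460), and the median of that list was -0.04.

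Nuclear regulators of mitochondrial genes split under MS275, with 4 of 10 higher and 5 lower. The orphan receptor ESRRG rose to 31.7 ± 5.28 CPM in MS275, against 10.1 ± 0.902 CPM in DMSO (SD, n = 3 each; 3.13-fold; edgeR adjusted p = 1.02e-08). The coactivators PPARGC1A and PPARGC1B rose 1.90-fold and 1.45-fold, while PPRC1, a coactivator of the same family, fell to 0.639-fold. NRF1, whose core motif is marked in the promoters above, fell to 0.735-fold (edgeR adjusted p = 0.00386), while GABPA was not called at 0.900-fold (edgeR adjusted p = 0.390); this pair was picked for the motifs shown.

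Markers of cell type moved with MS275 too. Of 8 dopaminergic markers tested 6 rose (summed level 1037 to 1249 CPM in MS275 libraries, 642 to 763 CPM in DMSO libraries), and of 6 precursor and cycling markers 4 rose (339 to 376 CPM, against 253 to 266 CPM). Of 6 astrocyte and oligodendrocyte markers tested 5 rose (152 to 179 CPM in MS275, against 128 to 142 CPM in DMSO), with SOX10 at 0 reads in every group. Most of both sums was OLIG2, the 1 tested marker not called, at 95.2 to 116 CPM in MS275 and 108 to 119 CPM in DMSO. Of those that rose, ALDH1L1 and S100B were scarce in DMSO, at 0.797 and 1.03 CPM, whereas MBP was at 16.4 CPM. Of 8 pan-neuronal markers 1 rose (4713 to 5909 CPM, against 5098 to 6236 CPM). Their part in the change of the mitochondrial factors was not tested.

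**Figure D4:**
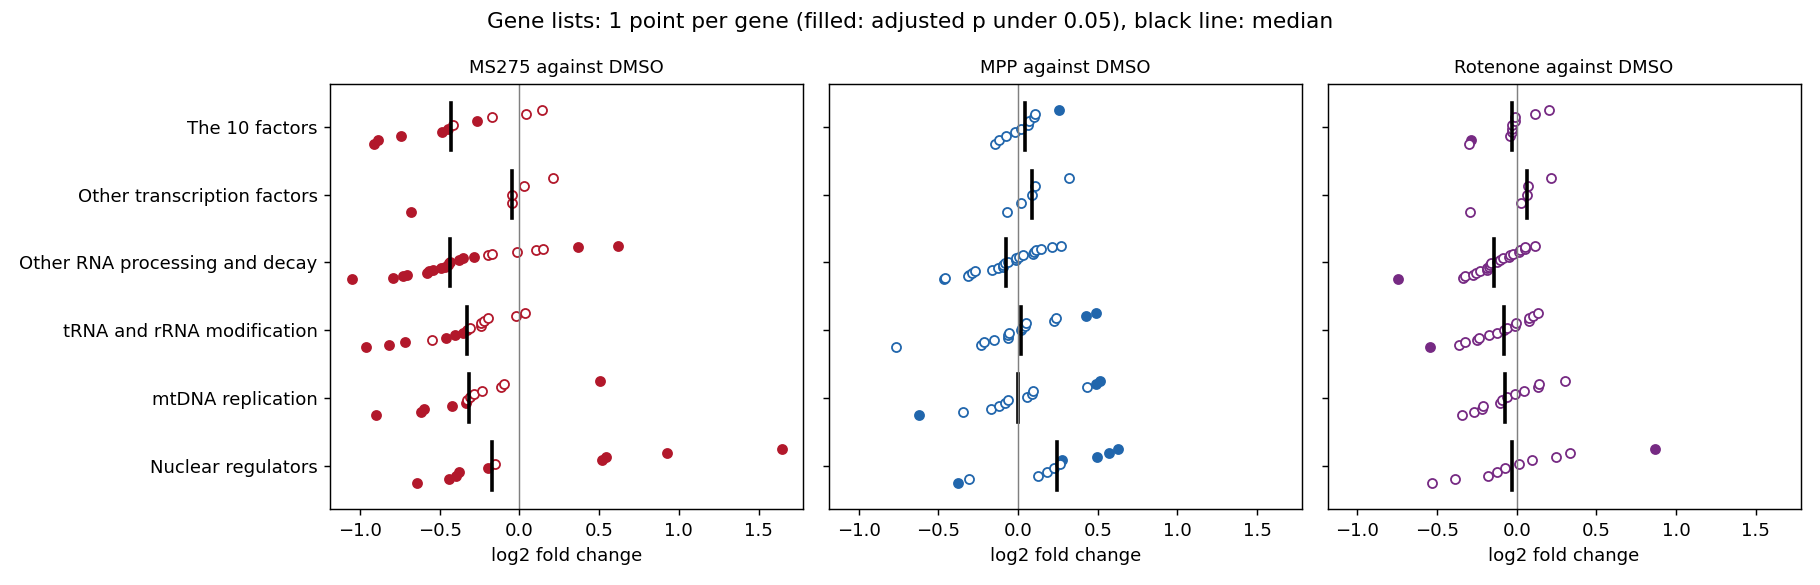
Log2 fold change (horizontal axis) of each gene of 6 lists under MS275, MPP and rotenone against DMSO, with filled points for an adjusted p under 0.05 and black lines for list medians. Under MS275 the medians lie between -0.44 and -0.04, and under MPP between -0.07 and 0.24.

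MPP raised LRPPRC alone among the 10 genes, where 10.8% of all tested genes were called, 5.77% higher and 5.02% lower. LRPPRC had 364, 397 and 394 CPM in MPP libraries, against 308, 325 and 335 CPM in DMSO libraries. Every MPP library was above every DMSO library, by a small margin (log2 fold change 0.25 ± 0.07 SE; 1.19-fold; edgeR adjusted p = 0.0193). The call was lost without DMSO replicate 1 (edgeR adjusted p = 0.112) or 2 (0.0620) and without MPP replicate 2 (0.0930) or 3 (0.0722), and with library totals in place of TMM (log2 fold change 0.16; 0.171). Over its 12 alternatives the edgeR or DESeq2 adjusted p ran from 0.00873 to 0.171, and 6 kept the call. SLIRP, its partner, had 80.7, 72.4 and 88.9 CPM in MPP libraries, against 85.4, 80.8 and 88.3 CPM in DMSO libraries, which overlap. Within libraries the ratio of LRPPRC to SLIRP was 4.51, 5.48 and 4.43 in MPP, against 3.60, 4.02 and 3.80 in DMSO, without overlap (exact permutation p = 0.1, the smallest possible; 0.5 adjusted). The other 9 members had log2 fold changes of -0.14 to 0.11, and no bound of their 95% intervals lay outside -0.53 to 0.47. SUPV3L1 was the only other member whose MPP libraries did not overlap with DMSO, at 51.9 ± 0.574 CPM in MPP and 49.7 ± 0.621 CPM in DMSO (SD, n = 3 each; edgeR adjusted p = 0.769), where 18.8% of all genes lay wholly above DMSO.

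These small differences stood beside large ones in the RNA of the mitochondrial genome itself. MT-RNR2, the large mitochondrial ribosomal RNA, was at 51739 ± 13075 CPM in MPP and 11097 ± 2907 CPM in DMSO (SD, n = 3 each; log2 fold change 2.22 ± 0.17 SE), and 9 of the 13 mitochondrial mRNAs rose while 3, among them the abundant MT-CO1 and MT-CO3, fell. Summed over the 13, the mRNAs were at 2451 ± 385 CPM in MPP and 2895 ± 50.9 CPM in DMSO. Under MS275, where 6 factors fell, none of the 13 mRNAs was called by edgeR after 6 h, with log2 fold changes of 0.01 to 0.31. Under rotenone 1 of the 13 was called, MT-ND1, which was lower (log2 fold change -0.81 ± 0.23 SE, 0.572-fold, edgeR adjusted p = 0.0305). The libraries were made from RNA selected for poly(A) and depleted of ribosomal RNA, so these ribosomal RNA values are of what remained after both steps.

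**Figure D5:**
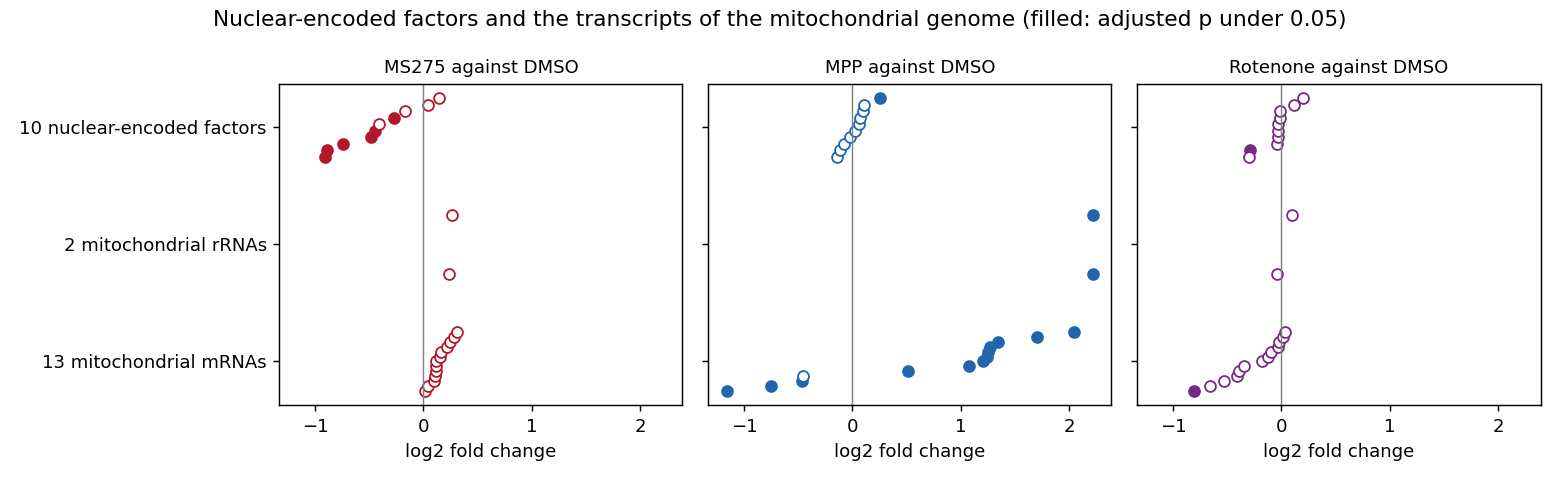
Log2 fold change (horizontal axis) under MS275, MPP and rotenone against DMSO of the 10 nuclear-encoded factors, the 2 mitochondrial ribosomal RNAs and the 13 mitochondrial mRNAs, filled where the adjusted p was under 0.05. In MPP the factors lie between -0.14 and 0.25 and the mitochondrial transcripts between -1.16 and 2.22. In rotenone MT-ND1, at -0.81, is the only filled point among the mitochondrial transcripts.

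Of the 64 related genes 8 were higher and 4 lower under MPP, but 1 higher and 10 lower with library totals, as 53.5% of all called genes were higher with TMM and 27.5% with library totals; no called gene of these lists changed sign. Of 8 dopaminergic markers tested TH and DDC fell, to 0.625-fold and 0.381-fold in MPP. DDC was scarce, at 1.07 ± 0.236 CPM in MPP and 2.78 ± 0.534 CPM in DMSO (SD, n = 3 each). The summed level of the list was 742 to 882 CPM in MPP libraries and 642 to 763 CPM in DMSO libraries. Most of it was SLC6A3, which was not called. Of 8 pan-neuronal markers RBFOX3 rose 1.31-fold (summed level 4931 to 5905 CPM in MPP, 5098 to 6236 CPM in DMSO). Of 6 precursor and cycling markers HES1 fell to 0.407-fold (summed level 275 to 307 CPM in MPP, 253 to 266 CPM in DMSO). HES1 was scarce too, at 1.04 ± 0.374 CPM in MPP and 2.53 ± 0.227 CPM in DMSO (SD, n = 3 each). The astrocyte and oligodendrocyte list summed to 125 to 134 CPM in MPP and 128 to 142 CPM in DMSO, with SOX10 at 0 reads. The part of these markers in the MPP results was not tested. The nuclear regulators GABPB2, PPARGC1A and PPARGC1B rose 1.54-fold, 1.49-fold and 1.41-fold, while GABPB1, a subunit of the factor that binds the ETS core, fell to 80.3 ± 4.62 CPM in MPP against 105 ± 1.11 CPM in DMSO (SD, n = 3 each; 0.768-fold; edgeR adjusted p = 0.000568). The replicative polymerase POLG rose 1.40-fold and the topoisomerase TOP1MT 1.43-fold, and PRIMPOL fell to 0.650-fold. The tRNA modifiers TRIT1 and TRMU rose 1.40-fold and 1.34-fold. RPUSD3, a pseudouridine synthase, fell to 0.724-fold and TRMT10C, a subunit of RNase P, to 0.808-fold.

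MPP and paraquat, a monocation with a phenyl group and a dication with a second pyridinium ring, were given at the same 5 µM for 6 h, and 1 of the 10 members differed between them, where 11% of all genes did, 6.04% higher in MPP and 4.94% lower. LRPPRC was at 364, 397 and 394 CPM in MPP libraries and at 323, 319 and 318 CPM in paraquat libraries. The groups did not overlap, where 17.7% of all genes lay wholly above paraquat (log2 difference 0.27 ± 0.07 SE, 1.20-fold, edgeR adjusted p = 0.0146). That call was lost without paraquat replicate 2 (edgeR adjusted p = 0.0511) or 3 (0.0538), without MPP replicate 2 (0.0749) or 3 (0.0598) and with library totals (0.141). The other 9 differences lay between -0.18 and 0.19 on the log2 scale, with 95% bounds from -0.55 to 0.39. SUPV3L1 was the only other member whose MPP libraries all lay above paraquat (edgeR adjusted p = 0.223). Of the 64 related genes 5 were higher and 4 lower in MPP than in paraquat, but 3 higher and 8 lower with library totals, as 55.0% of all called genes were higher with TMM and 26.5% with library totals. RPUSD3 was at 25.4 ± 3.22 CPM in MPP and 39.4 ± 2.25 CPM in paraquat (SD, n = 3 each; 0.645-fold; edgeR adjusted p = 0.000607), and TOP1MT was 1.61-fold higher in MPP. PPARGC1B, TRIT1, TRMU and YY1 were also higher in MPP, at 1.42-fold, 1.39-fold, 1.39-fold and 1.23-fold. PRIMPOL, GABPB1 and FASTKD5 were lower in MPP, at 0.631-fold, 0.758-fold and 0.774-fold.

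Rotenone, which like MPP acts on complex I but was given at 1 µM and so is not compared with it, lowered ELAC2 alone, where 5.52% of all genes were called and 2.76% were lower. ELAC2 had 70.9, 80.0 and 85.9 CPM in rotenone libraries, against 93.5, 98.5 and 96.5 CPM in DMSO libraries. The groups did not overlap, with replicate 1 lowest (log2 fold change -0.29 ± 0.09 SE; 0.818-fold; edgeR adjusted p = 0.0432). This call stood near the threshold and 3 of its 12 alternatives kept it. It was lost without DMSO replicate 1 (edgeR adjusted p = 0.0764), 2 (0.156) or 3 (0.122), without rotenone replicate 1 (0.147) or 2 (0.0714), with RLE size factors (0.0513), without the filter on low counts (0.0959), with the 2 groups fitted alone (0.212) and in the fit with replicate number as block (0.0608). TFB2M had 15.5, 14.4 and 9.92 CPM in rotenone libraries, against 15.8, 16.1 and 17.4 CPM in DMSO libraries, which did not overlap, where 11.3% of all genes lay wholly below, but were not called (log2 fold change -0.30 ± 0.14 SE; edgeR adjusted p = 0.227). Of the 64 related genes FASTKD5, needed for the maturation of mitochondrial mRNAs that no tRNA flanks, fell to 24.5 ± 0.500 CPM in rotenone against 41.0 ± 2.37 CPM in DMSO (SD, n = 3 each; 0.597-fold), TRMT61B fell to 0.687-fold and GABPB2 rose 1.83-fold. Each marker list had 1 called gene in rotenone. Of 8 dopaminergic markers tested SLC6A3 rose 1.65-fold (summed level 886 to 1232 CPM in rotenone, 642 to 763 CPM in DMSO), while TH, not called, had 31.2, 40.0 and 43.5 CPM in rotenone libraries, against 55.2, 51.4 and 45.9 CPM in DMSO libraries. Of 8 pan-neuronal markers RBFOX3 rose 1.36-fold (5157 to 5656 CPM in rotenone, 5098 to 6236 CPM in DMSO), and of 6 precursor and cycling markers NES rose 1.92-fold (337 to 374 CPM in rotenone, 253 to 266 CPM in DMSO), with SOX2 at 0 reads in rotenone. Of 6 astrocyte and oligodendrocyte markers tested MBP rose 1.91-fold (140 to 168 CPM in rotenone, 128 to 142 CPM in DMSO), with GFAP and SOX10 at 0 reads in rotenone. The part of these markers in the rotenone results was not tested. Rotenone libraries differed among themselves in several members, with TFB1M at 9.67, 4.72 and 7.79 CPM and TFAM at 97.2, 85.3 and 68.3 CPM.

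Under paraquat, ziram, 6-HD and methylmercury 0 of the 10 genes were called by edgeR or by DESeq2, where edgeR called 0%, 0.530%, 0.0106% and 0.286% of all genes (0.223% higher and 0.0637% lower in methylmercury). At an unadjusted p under 0.05 edgeR found 0 members in paraquat, ziram and 6-HD and 1 in methylmercury, where of 18852 genes it found 182 in paraquat, 1223 in ziram, 1074 in 6-HD and 2174 in methylmercury. The 1 member of 10 in methylmercury is thus close to the share among all genes. Log2 fold changes against DMSO were -0.13 to 0.28 in paraquat, -0.12 to 0.17 in ziram, -0.12 to 0.26 in 6-HD and -0.17 to 0.32 in methylmercury. The widest 95% bounds belonged to the scarce members, TEFM at 0.70 in methylmercury and TFB1M at -0.46 in paraquat, so changes within these bounds could not be told from none for every member. The member with the unadjusted p under 0.05 was SLIRP, with 95.4, 120.0 and 100.2 CPM in methylmercury libraries, against 85.4, 80.8 and 88.3 CPM in DMSO libraries. Its libraries were all above DMSO (log2 fold change 0.31 ± 0.10 SE; edgeR adjusted p = 0.188), as were those of TFAM, where 9.9% of all genes lay wholly above, and ELAC2 lay wholly below DMSO, where 9.95% did. In paraquat SUPV3L1 lay wholly below DMSO, where 4.34% of all genes did. ELAC2 did so in ziram (10.2% of all genes), and TFB1M lay wholly above DMSO in 6-HD (5.85% of all genes). The count ratio with SLIRP as denominator was lower, with 3.39, 2.94 and 3.09 LRPPRC reads per SLIRP read in methylmercury, against 3.60, 4.02 and 3.80 in DMSO (exact permutation p = 0.1; 0.5 adjusted). POLRMT had 77.2, 60.0 and 86.0 CPM in methylmercury libraries, against 86.2, 83.5 and 82.7 CPM in DMSO libraries, with replicate 2 lowest of all 24 libraries. Of the 64 related genes 0 were called in paraquat, ziram and 6-HD and 1 in methylmercury. That gene was DNA2, at 26.8 ± 4.00 CPM in methylmercury and 16.1 ± 3.27 CPM in DMSO (SD, n = 3 each, 1.65-fold, edgeR adjusted p = 0.0229).

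Over the 24 libraries, which share the MS275 fall of many genes, the closest pair of members by log2 CPM was TFAM and SUPV3L1 (Pearson r = 0.84), followed by TFAM and TFB2M (0.84) and SUPV3L1 and ELAC2 (0.81). POLRMT ran against TFAM, with r = -0.50, the lowest of the pairs. Among 11370 genes of at least 5 CPM, the genes most like SUPV3L1 were RTCA (0.97), LONRF1 (0.95) and SNX14 (0.95), those most like LRPPRC were YES1 (0.95), ZCCHC6 (0.95) and RPE (0.94), and those most like ELAC2 were ALDH18A1 (0.95), RCC2 (0.95) and MTA2 (0.94). TFAM was closest to MBIP (0.95), VPS4B (0.94) and NEPRO (0.93), and TFB2M to VLDLR (0.93), EMSY (0.92) and KIAA0586 (0.92). For POLRMT they were SH3GL1 (0.90), GPSM1 (0.90) and PODXL2 (0.89), none of which is a member or on the related lists. SLIRP had REXO2, a mitochondrial oligoribonuclease from the related lists, among its closest (0.86). TFB1M, the member with the fewest reads in a library, had no gene above 0.68.

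Sharing of reads with other genes bears on a few members. TFB1M shares 215 exon bases (7.86% of its exons) with TIAM2, SLIRP 118 bases (4.48%) with SNW1, and TEFM 542 bases (16.8%) with AC130324.3 and 301 bases (9.34%) with ADAP2, all on the other strand, and the strand setting of the counting is not given in the sources used here. TIAM2 was at 13.3 CPM and SNW1 at 70.4 CPM in DMSO, whereas ADAP2 was at 0.179 CPM and AC130324.3 at 0. On its own strand SLIRP shares 275 bases (10.5%) with C14orf178, which was at 0.0506 CPM in DMSO. Of the pseudogene copies, TFAMP1 reached at most 0.594 CPM and PNPT1P1 0.735 CPM in any library and PNPT1P2 was at 0 reads; POLRMTP1 and TFAMP2 were not analysed here.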

How the data were processed

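RNA was selected for polyadenylated transcripts and depleted of ribosomal RNA in 2 rounds before TruSeq libraries were sequenced, per the labels' protocols. Reads were aligned with STAR to GRCh38 and counted per gene with HTSeq, per the submitters' processing notes, which give no version, annotation or strand setting. The deposited raw counts of 58051 genes in 24 libraries were used, with 0 columns left without a sample; 266 rows without a gene name stayed in the fit under their identifiers. The authors' normalized table was not used.

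Counts were fitted with edgeR 4.0.16 (R 4.3.3): default expression filter, TMM, 1 coefficient per group, 16 residual degrees of freedom and the quasi-likelihood F test for 8 comparisons. DESeq2 1.42.0 was an alternative. No 2 replicate libraries were identical. Positions and lengths came from GENCODE 29 (57447 genes matched by identifier), and promoters from RefSeq (GRCh38.p14; all 10 members matched). MTRES1 and PRORP were matched by identifier. Python 3.11.15, pandas 2.3.3, scipy 1.17.1 and matplotlib 3.10.9 made the tables and figures. The members and lists were chosen with earlier results of these data known. All members are named. From each other list up to 4 genes per comparison qualified, by size of change. They had to be called, with at least 2 CPM in the higher group. Of the marker lists not all such genes are named, and some others are. Genes most like a member were the 3 with the highest Pearson correlation of log2(CPM + 0.5).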

Additional observations from a re-analysis of the deposited data

How the results depend on the processing

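The 6 genes lowered by MS275 were called under all 12 alternatives, with the least certain of them, LRPPRC, at an adjusted p of at most 0.0321; TEFM made a count of 7 without DMSO replicate 1 or MS275 replicate 3. The member calls of the other groups rested on 1 gene each. In MPP against DMSO the count of members called became 0 with library totals and 0 without the filter on low counts (edgeR adjusted p of LRPPRC 0.171 and 0.0655), and ranged from 0 to 1 when 1 library was left out. In MPP against paraquat it became 0 with library totals and ranged from 0 to 1 when 1 library was left out. In rotenone it became 0 with RLE size factors, without the filter, with only the 2 groups fitted and with the replicate block, and ranged from 0 to 1 when 1 library was left out. No value of a called member changed sign; 88 of 108 kept their call and 20 did not. Why calls were lost was not tested. The replicate block changed no other member's call. Same-numbered libraries were not paired by the data: their deviations from the group means correlated between -0.0647 and 0.0698. Over all genes, the count called moved by over 1.5 times with only the 2 groups fitted, to 3983 from 2034 in MPP, 211 from 1041 in rotenone, 586 from 100 in ziram and 3541 from 2070 in MPP against paraquat; 6-HD, with 2, gave 1, and 0 with the replicate block. DESeq2 called 165 in ziram, 208 in methylmercury (54 with edgeR) and 8 in 6-HD, and without the filter 160, 249 and 18 were called, and 3 in paraquat. With 1 library left out, the counts were 1142 (without MPP replicate 2) to 1430 in MPP, 1157 (without MPP replicate 2) to 1476 in MPP against paraquat, 483 (without DMSO replicate 2) to 1616 (without rotenone replicate 1) in rotenone, 40 (without ziram replicate 1) to 74 in ziram, 0 to 2 in 6-HD, and in methylmercury 7 (without methylmercury or DMSO replicate 2) to 170 (without methylmercury replicate 3), so the shares of all genes called move with single libraries. Depth limits TFB1M and TEFM most.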
